A study of Caenorhabditis elegans and Caenorhabditis briggsae with 26 samples.

Results

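The genes described here are the 150 whose transcript level varied least over development in both Caenorhabditis elegans and Caenorhabditis briggsae. They were chosen by their measured values. For every C. elegans gene with a C. briggsae ortholog in the deposited table, log2(RPKM + 1) was averaged over the libraries of a stage, and the range over 7 stages (highest minus lowest stage) was taken in each species. RPKM counts reads per length of gene model and per mapped read of the library, so it is a share of the library and not an amount per animal. Of 13813 ortholog pairs, 1269 (9.19%) held at least 20 RPKM in every stage of both species, the pairs at the floor, and the 150 with the lowest score, the larger of the species' ranges, are the steady genes. They are 11.8% of the 1269 pairs and 1.09% of all pairs. Because the ranges chose the genes, they are described without a test.

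Genes that every dividing, growing or resting cell needs are often called housekeeping genes. Among them are the factors that start protein synthesis, the synthetases that join amino acids to transfer RNAs, the ribosomes and import machines of mitochondria, and the chaperones that fold actin and tubulin. Such genes are used as reference genes for quantitative PCR, where a level that does not follow the stage of the animal is wanted.

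Both nematodes were wild type, strain N2 for C. elegans and strain AF16 for C. briggsae, grown in liquid culture at 20 °C on the Escherichia coli strain AT713. Poly(A) RNA of whole animals was sequenced in 26 libraries, 13 per species, from mixed embryos (E), fed L1, L2 and L3 larvae, early and late L4 larvae (L4 and LL4), young adults not yet carrying eggs (YA) and a reference mixture of stages. From L1 to YA, C. elegans animals were taken 7, 20, 29, 41, 52 and 57 h after food was given, and those of C. briggsae after 6, 20, 28, 41, 53 and 63 h. Embryos and L1 had 3 libraries per species, A1 and A2 of culture A and 1 of culture B, which was a second time course. From L2 on each stage had 1 library, all of culture A, and the mixture had 2.

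The stage labels were checked against marker genes. Summed over 12 embryo markers, RPKM was 1236 in C. elegans embryos and 1594 in young adults but at most 147 from L1 to LL4; in C. briggsae the sums were 3171, 1691 and at most 202. Yolk and spermatogenesis markers peaked in young adults of both species. In the single C. elegans L2 library, however, 6 yolk markers summed to 454 RPKM, and in L3 to 74.9, against 1.56 to 5.50 in embryos, L1, L4 and LL4, and the sum of 40 spermatogenesis markers was 16.1 in L2 and 6.48 to 8.84 in embryos, L1, L3 and L4. Without that library 134 of the 150 were still among the 150 lowest scores. Embryos of the species also differed in tissue markers present in both: 9 body wall muscle markers summed to 806 RPKM in C. elegans and 114 in C. briggsae, 11 intestine markers to 518 and 71.8, and 14 pharynx markers to 340.5 and 42.7. Of all the embryo, sperm, yolk, intestine, muscle, pharynx, neuron, germ line and cuticle markers, only 1 embryo and 1 neuron marker reached the floor. The rest could not be chosen. The embryo marker, skn-1, was a steady gene and the neuron marker was not. C. elegans embryo library A1 stood apart from A2 of the same culture: 16 of the 150 genes differed by over 2-fold, against 0 between A2 and B. Among the 1269 pairs at the floor the counts were 150 and 3, so this was not particular to the steady genes. Steady genes with under 1000 bases of exon had a median log2 difference of 0.46 between A1 and A2 (n = 57), and those of at least 2000 bases -0.48 (n = 32). All pairs at the floor gave 0.60 (n = 429) and -0.30 (n = 333). Without A1, 131 of the 150 were still among the 150 lowest scores.

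Scores of the steady genes ran from 0.45 to 1.02 with a median of 0.88, which is 1.37-fold to 2.02-fold between the highest and lowest stage (median 1.85-fold). In the 1269 pairs the median was 1.74, or 3.35-fold, and the highest score was 6.75. The rule limits the range in both species alike, and the median range of the 150 was 0.78 in C. elegans and 0.76 in C. briggsae. C. elegans had the larger range for 78 of them (52.0%). Over the 1269 pairs the medians were 1.39 and 1.58, and C. elegans had the larger range for 482 (37.98%). Both ranges were under 2-fold for 141 genes and under 1.5-fold for 3, arx-2, sgt-1 and eif-3.D. Mean levels over stages and species ran from 26.4 to 6525 RPKM with a median of 65.1, against 85.4 in the 1269 pairs. In whole animals, a changed number of cells of a type and a changed level per cell cannot be told apart.

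**Figure D1:**
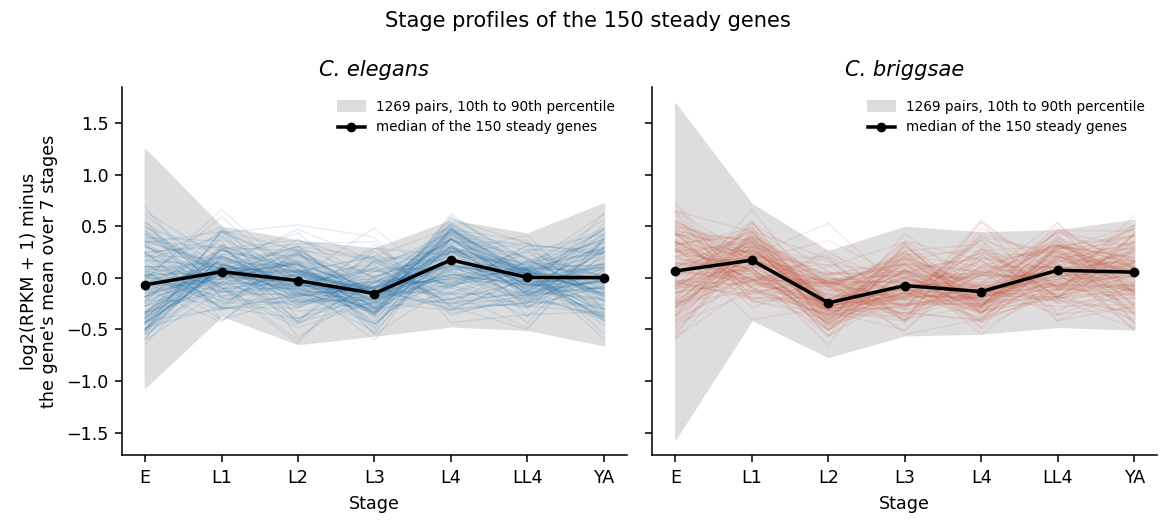
Each thin line is 1 of the 150 steady genes, plotted as log2(RPKM + 1) minus its own mean over the 7 stages, with the median of the 150 in black and the 10th to 90th percentile of the 1269 pairs in grey. The grey band is widest in embryos, and the black line lies lowest at L3 in C. elegans (-0.15) and at L2 in C. briggsae (-0.24).

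The steadiest gene was arx-2 (K07C5.1, chromosome V, 10335463 to 10338355 in WBcel235), which encodes the Arp2 subunit of the Arp2/3 complex that starts branched actin filaments. In C. elegans its RPKM was 36.6, 74.1 and 64.6 in embryo libraries A1, A2 and B and 55.2, 50.8 and 57.6 in the L1 libraries, then 47.2 in L2, 44.7 in L3, 50.9 in L4, 47.3 in LL4 and 48.5 in young adults. In C. briggsae the embryo libraries gave 57.7, 78.1 and 75.2 and the L1 libraries 62.2, 75.2 and 72.1, followed by 50.8, 54.7, 67.9, 58.0 and 63.2 from L2 to YA. The stage means spanned 1.25-fold in C. elegans and 1.37-fold in C. briggsae, and the C. elegans embryo libraries alone lay farther apart than any of the stage means. Of the other measured subunits of the complex, arx-4 (rank 66) and arx-1 (rank 142) were also steady genes, so all 3 Arp2/3 genes that reached 20 RPKM throughout were among the 150, and 3 others did not reach it.

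Second was sgt-1 (R05F9.10, II, 4902288 to 4903796), the gene of a small co-chaperone with tetratricopeptide repeats. Its C. elegans values were 108, 176 and 187 RPKM in the embryo libraries, 156, 130 and 191 in L1, and 123, 122, 154, 146 and 144 from L2 to YA. The C. briggsae values were 184, 174 and 138 in embryos, 150, 147 and 168 in L1, and 177, 181, 168, 217 and 156 from L2 to YA. Its highest stage was L1 in C. elegans and LL4 in C. briggsae, and the stage means spanned 1.29-fold and 1.40-fold.

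The 5th was skn-1 (T19E7.2, IV, 5651039 to 5660384), which encodes the transcription factor that specifies mesendoderm in the early C. elegans embryo and later acts in the response to oxidative stress. It was the only transcription factor of embryonic fate on the marker list that reached the floor. In C. elegans it was at 56.4, 58.4 and 48.6 RPKM in embryos, 56.6, 46.7 and 66.8 in L1, and 37.3, 54.3, 37.4, 40.02 and 42.9 from L2 to YA. In C. briggsae it was at 126, 120 and 118 in embryos, 94.1, 78.6 and 122 in L1, and 105, 124, 83.7, 80.3 and 81.6 from L2 to YA. Every C. briggsae library lay above every C. elegans library, and L3 was close to the embryo level in both species. These are sums over the transcripts of the gene, and skn-1 isoforms were not separated. The gene overlaps another protein-coding gene in the annotation, and no source used here states whether the authors' counting used strand.

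**Figure D2:**
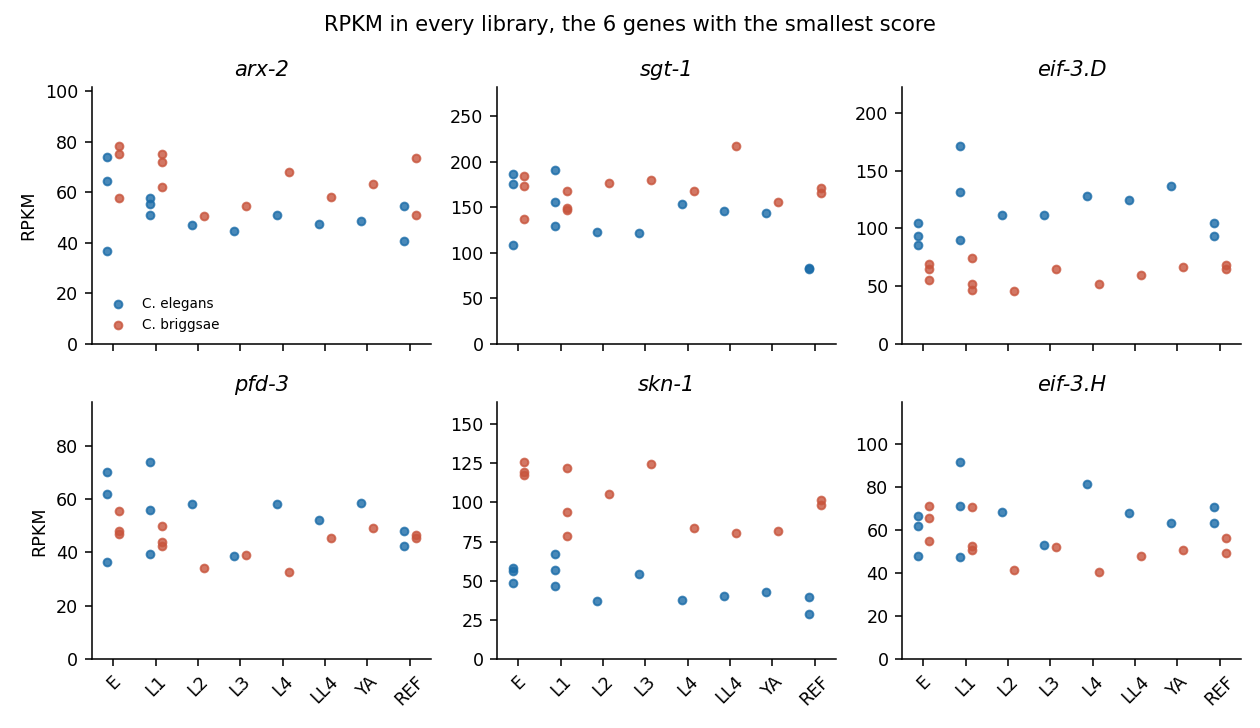
RPKM (linear axis from 0) of the 6 genes with the lowest scores in every library, by stage and in the reference mixture (REF), C. elegans in blue and C. briggsae in red. Species levels are apart for skn-1 and eif-3.D in every stage, and sgt-1 lies at 83.3 and 82.2 RPKM in the C. elegans mixture, under each of its staged libraries.

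The eukaryotic initiation factor eIF3 holds the small ribosomal subunit ready for messenger RNA. On deposited RPKM, 7 of the 9 eIF3 subunit genes at the floor were steady genes (77.8%, against 11.8% of the 1269 pairs). This list, like those of the mitochondrial ribosome, complex I, mitochondrial import, ABC and Arp2/3 genes, was drawn up after the values were seen. Its share is thus no independent evidence. Median-ratio scaling sets the median gene equal in all libraries of a species. After it, 2 of 9 were among the 150 lowest scores (22.2%, against 11.2% of all pairs at the floor). The 7 steady genes were eif-3.D, eif-3.H and eif-3.C at ranks 3, 6 and 9, then eif-3.F, eif-3.J, eif-3.K and eif-3.B. The other subunits at the floor, eif-3.E and eif-3.I, spanned 2.59-fold and 3.54-fold and ranked 376 and 678.

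For eif-3.D (R08D7.3, III, 8969635 to 8971578) the C. elegans libraries held 93.0, 85.2 and 104.5 RPKM in embryos, 132, 89.6 and 171 in L1, and 111, 112, 128, 125 and 137 from L2 to YA. The C. briggsae libraries held 55.6, 64.5 and 69.1 in embryos, 52.2, 47.1 and 74.3 in L1, and 46.1, 64.7, 51.9, 59.8 and 66.7 from L2 to YA. No C. briggsae library reached the lowest C. elegans library. Stage means of eif-3.H (C41D11.2, I, 4444719 to 4446613) ran from 53.2 RPKM at L3 to 81.4 at L4 in C. elegans and from 40.5 at L4 to 63.6 in embryos in C. briggsae. L4 was thus its highest stage in 1 species and its lowest in the other.

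Outside eIF3, the initiation factor genes eif-1 (rank 16), eif-2alpha (36) and eif-1.A (106), the elongation factor gene eef-1A.1 (69) and the termination factor gene erfa-3 (76) were steady, which made 12 of 27 translation factor genes at the floor (44.4%), against 5 of 28 (17.9%) after median-ratio scaling, which sets the median gene equal in all libraries of a species. The 15 others reached up to 12.87-fold, in iff-2, a gene of the eIF5A family, and eef-1A.2 spanned 7.38-fold. The most abundant steady gene was eef-1A.1 (F31E3.5, III, 6970026 to 6971712), the carrier of aminoacyl-tRNA to the ribosome. Its C. elegans stage means ran from 4336 RPKM in embryos to 7926 in young adults and the C. briggsae means from 5710 in embryos to 7858 at L3. Its near-identical copy eef-1A.2 can share reads with it, and the split between them depends on counting that is not given. Next in level came pab-1 (1123 RPKM), the poly(A)-binding protein gene, tct-1 (936), the gene of the translationally controlled tumour protein homolog, par-5 (598), a 14-3-3 protein gene, and sqd-1 (486), an RNA-binding protein gene. The genes of ABC proteins that act on ribosomes also fell within the set: abcf-1, abce-1 and abcf-2 ranked 17, 23 and 126, and abcf-3 ranked 352.

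The genes of the ribosome itself were not steady over the 7 stages. None of 69 cytosolic ribosomal protein genes at the floor was among the 150, their median score was 3.21 (9.22-fold), and the lowest was 1.18. With embryos left out, 30 of the 69 (43.5%) were among the 150 lowest scores, against 8.86% of all pairs at the floor. Genes for the proteins of the mitochondrial ribosome, which translates only the few proteins encoded in mitochondrial DNA, gave other values. Over the 7 stages 19 of 31 at the floor were steady (61.3%), with a median score of 0.96 over the 31. With embryos left out, 8 of 37 (21.6%) were among the 150 lowest scores. Their share also depended on scaling: 5 of 20 (25%) after median-ratio scaling and 6 of 32 (18.8%) after quantile normalization, against 11.2% and 10.9% of all pairs at the floor.

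Within the mitochondrial ribosome, the lowest scores were those of mrpl-30 (rank 11), mrpl-32 (13) and mrps-15 (22). The gene mrpl-30 (W04B5.4, III, 2406310 to 2410975) had C. elegans stage means between 25.96 RPKM in embryos and 40.9 at L4, and C. briggsae means between 32.2 at L2 and 51.9 at LL4. C. elegans L4 was also the highest stage of mrpl-32, at 54.6 RPKM against 33.7 at L3, and of mrps-15, at 44.2 against 26.99. At the other end, mrps-25 spanned 4.26-fold and ranked 815. Another 34 pairs of this list lay under the floor and could not be chosen. With a floor of 50 RPKM, 0 genes of the list reached it.

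Other mitochondrial genes followed. Complex I genes encode subunits of the NADH dehydrogenase of the respiratory chain. Of 28 at the floor, 10 were steady (35.7%, against 11.8% of all pairs at the floor), led by nduf-11, ndua-1 and ndua-13 at ranks 34, 38 and 39. After median-ratio scaling 0 of 28 were among the 150 lowest scores, where all pairs at the floor gave 11.2%. Stage means of ndua-13 (C34B2.8, I, 10685825 to 10687058) ran from 204 RPKM in embryos to 350 at L4 in C. elegans and from 184 at L2 to 298 at L1 in C. briggsae. The complex I gene gas-1 spanned 5.78-fold. On deposited RPKM all 10 steady genes among 55 respiratory chain and ATP synthase genes were of complex I. After quantile normalization the respiratory list gave 11 of the 150 lowest scores and the complex I list 6.

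Mitochondrial import, protease, dynamics and chaperone genes gave 10 of 18 (55.6%), but 2 of 14 (14.3%) after median-ratio scaling, where all pairs at the floor gave 11.2%, and 2 of 20 with embryos left out. They include ymel-1 and lonp-1, genes of ATP-dependent proteases, immp-2 for the inner membrane peptidase, tomm-20 and tomm-40 of the outer membrane import complex, and fzo-1, the mitofusin gene. For ymel-1 (M03C11.5, III, 10416139 to 10421757) the C. elegans stage means spanned only 24.2 to 32.5 RPKM and the C. briggsae means 41.1 to 68.1 RPKM. With fzo-1 (29.8 RPKM), the steady genes of lowest mean level were tag-131 (26.4), algn-11 (27.8), mrpl-4 (29.0) and M01F1.4 (30.6), all close to the floor of 20 RPKM.

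Aminoacyl-tRNA synthetases contributed 8 of 18 genes at the floor (44.4%), namely ears-1, lars-1, hars-1, yars-1, iars-1, gars-1, rars-1 and fars-3. After median-ratio scaling 2 of 18 were among the 150 lowest (11.1%, against 11.2% of all pairs at the floor). The glutamyl-tRNA synthetase gene ears-1 (ZC434.5, I, 10336395 to 10341178) had stage means of 55.8, 65.9, 51.5, 70.7, 52.5, 71.3 and 80.7 RPKM from E to YA in C. elegans. In C. briggsae they were 70.2, 75.6, 65.5, 80.3, 91.6, 89.8 and 73.8 RPKM. The leucyl-tRNA synthetase gene lars-1 (R74.1, III, 4181549 to 4186801) spanned 1.33-fold in C. elegans, between 62.9 RPKM at L3 and 84.0 at L1, and 1.58-fold in C. briggsae, between 46.0 at L2 and 73.1 in young adults. Of the 10 synthetase genes not chosen, 9 lay between 2.06-fold for pars-1 and 2.54-fold for nars-1, and tars-1 reached 4.13-fold.

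The chaperones of actin and tubulin gave 4 of 10 genes (40%). Prefoldin hands unfolded chains to the ring-shaped chaperonin CCT, and its subunit gene pfd-3 (T06G6.9, I, 12728137 to 12729898) ranked 4th, with cct-1, cct-3 and cct-4 at ranks 25, 29 and 108. The C. elegans libraries held 36.3, 61.9 and 70.1 RPKM of pfd-3 in embryos, 55.9, 39.5 and 74.0 in L1, and 58.2, 38.5, 58.0, 52.2 and 58.4 from L2 to YA. The C. briggsae libraries held 46.9, 47.9 and 55.6 in embryos, 43.7, 42.3 and 49.97 in L1, and 34.2, 38.8, 32.6, 45.5 and 49.2 from L2 to YA. Libraries of 1 stage spread as widely here as the stages did: the C. elegans L1 libraries lay 39.5 to 74.0 apart and the stage means 38.5 to 58.4.

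Of 25 actin and microtubule genes at the floor, 6 were steady (24.0%): the Arp2/3 genes, unc-60, which encodes actin-depolymerizing cofilin, dyci-1, a dynein intermediate chain gene, and lis-1, a dynein regulator. Vesicle traffic gave 5 of 35 (14.3%), near the 11.8% of all pairs at the floor, with rab-1, gdi-1 and vps-4 lowest. The proteasome gave 1 of 30, rpt-6, and the list of splicing and mRNA 3' end processing genes 1 of 37, snr-4. The V-ATPase list gave 0 of 14, nuclear transport 0 of 12, and RNA polymerase II and general transcription 0 of 9. In all, 81 of the 150 stood on at least 1 function list and 69 on none, of which 28 have only a sequence name, such as the 8th-ranked C47G2.3 (II, 11288722 to 11290159), whose stage means lay between 26.8 and 42.4 RPKM in C. elegans and between 27.9 and 40.7 in C. briggsae.

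**Figure D3:**
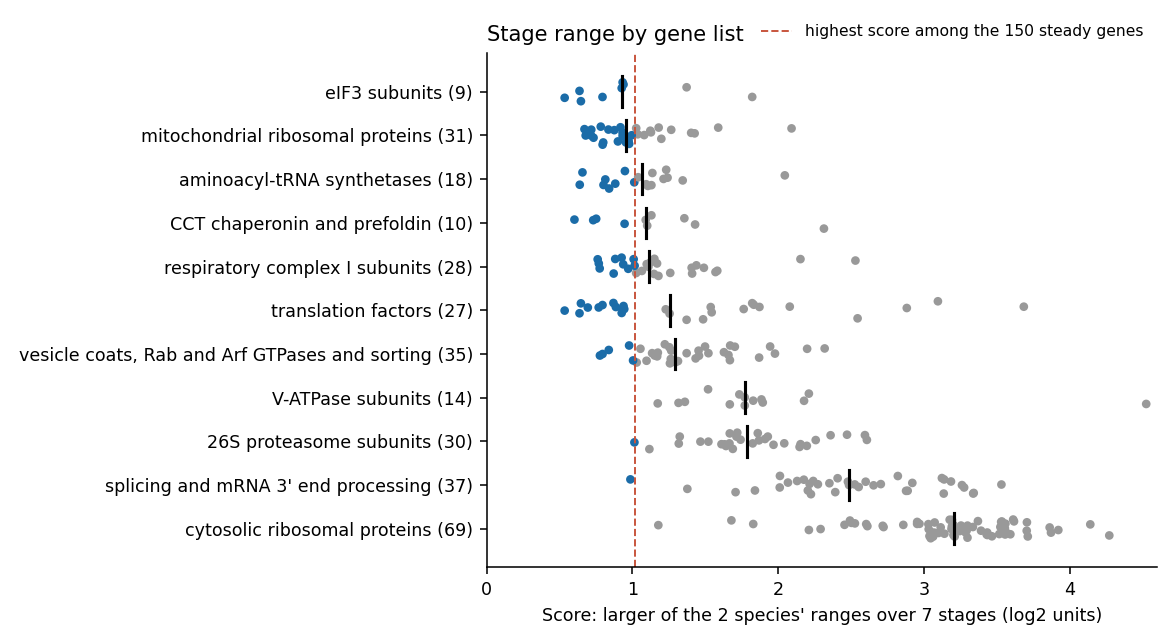
Score (larger of the 2 species' ranges over 7 stages, log2 units) of each gene at the floor, by function list, with the number of genes in parentheses, steady genes in blue, others in grey, list medians as black bars and the highest score of the 150 as a dashed line. The eIF3 and mitochondrial ribosome medians (0.93 and 0.96) lie left of the line and the cytosolic ribosome median (3.21) far to its right.

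The limit of 150 genes fell in a dense part of the ranking. Just inside it were rpt-6, par-5 and nduf-5 at 2.02-fold, and just outside were ola-1 and slc-25A37, also at 2.02-fold, and cox-7C at 2.03-fold. The gene ola-1 spanned 1.26-fold in C. briggsae and 2.02-fold in C. elegans, where it was highest in L1 and lowest in embryos.

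Genes in common use for normalizing quantitative PCR in worms were mostly not in the set, like most pairs at the floor. Of these reference genes at the floor 12.5% were steady, near the 11.8% of all pairs at the floor. Of 15 such genes in the table, 14 had a pair, 8 were at the floor and 1, eif-3.C (T23D8.4, I, 9976426 to 9979662), was a steady gene, at rank 9. Its stage means ran from 90.5 RPKM in embryos to 137 at L4 in C. elegans and from 64.3 at L2 to 101 in embryos in C. briggsae. Next was Y45F10D.4 (iscu-1), an iron-sulfur cluster scaffold gene, at rank 182, with 2.12-fold in C. elegans and 1.76-fold in C. briggsae. The GTPase gene cdc-42 stood at rank 268, the actin gene act-2 at 477, the tubulin gene tba-1 at 1095, and rps-23, a ribosomal protein gene, was last at 1191. In C. briggsae rps-23 ran from 383 RPKM in embryos to 3975 in L1, or 10.3-fold. The 6 pairs under the floor included pmp-3, which spanned 4.46-fold in C. elegans between 15.9 RPKM at L4 and 74.3 in embryos, ama-1, with 2.78-fold there, and tbg-1, with 3.90-fold.

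The small changes that remained were not spread evenly over the stages. In C. elegans 54 of the 150 peaked at L4 (36.0%, against 19.8% of the pairs at the floor), 49 were lowest in embryos (32.7% against 29.5%) and 38 at L3 (25.3% against 18.7%). In C. briggsae 43 peaked in embryos (28.7% against 48.1%) and 40 in L1 (26.7% against 23.2%), and 62 were lowest at L2 (41.3% against 31.6%). The shares lowest in C. elegans embryos and highest in C. briggsae L1 were thus near those of all pairs at the floor. Taking the median stage profile away from each gene lowered the median range from 0.78 to 0.73 for C. elegans, and for C. briggsae from 0.76 to 0.68, a fall of 6.70% and 10.6%. The species' profiles had a median Pearson correlation of 0.19 over the 7 stages, above 0 for 94 of the 150, against 0.60 and 1078 of 1269 in the pairs at the floor. These values describe 7 stages that all genes share, in which 5 rest on 1 library. They are also the stage means that the rule used. Choosing small ranges in both species leaves out pairs with a large shared change. The lower correlation and the peak shares are therefore no independent result about the steady genes.

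Replicate cultures show how much of such a range separate cultures of 1 stage already give. Between cultures A and B the median absolute log2 difference of the steady genes was 0.22 in embryos and 0.24 in L1 of C. elegans, and 0.21 and 0.17 in C. briggsae. In the 1269 pairs it was 0.20 and 0.27, and 0.20 and 0.18. The larger of a gene's embryo and L1 gaps was as large as its whole 7-stage range for 16 of the 150 in C. elegans (10.7%) and 7 in C. briggsae (4.67%). The median gap was 0.52 of the range in C. elegans and 0.40 in C. briggsae, and 0.26 and 0.19 in the pairs at the floor. The rule chose small ranges, so gaps of like size make these counts and ratios larger in the 150 by the choice alone. For comparison, the quartiles of the scores of the 150 were 0.77 and 0.96.

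The reference mixture was not used to choose the genes. As it mixes stages, a gene can lie within its stage range there without being steady, so the values are no check of steadiness. In C. briggsae 139 of the 150 (92.7%) lay within their own 7-stage range in the mixture, with a median absolute distance of 0.11 (log2) from the stage mean. In C. elegans 86 (57.3%) did, with a median distance of 0.35. Over the 1269 pairs, whose stage ranges are wider, 96.5% and 73.4% lay within, and 81 of the 150 were within in both species. The median distances of these pairs were larger, 0.18 in C. briggsae and 0.45 in C. elegans. After median-ratio scaling 106 of the 150 (70.7%) lay within in C. elegans, against 73.1% of the 1269 pairs, and 139 in C. briggsae.

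The 5 farthest were all in C. elegans, and all above the stages. The sequence-named Y54E5A.5 was at 185 and 208 RPKM in the mixture libraries against 58.6 to 102 over the stages, a log2 distance of 1.24 from the stage mean. The ribosome assembly gene pno-1 was at 166 and 191 RPKM against 52.7 to 99.6 (1.19). Then came mrps-2 (1.12), the ubiquitin-conjugating enzyme variant gene uev-1 (1.03) and pfkb-1.1 (0.88). In the C. briggsae mixture 4 of these 5 lay within their stage range and pno-1 below it. The C. elegans distances moved with gene length: the median was 0.20 for steady genes under 1000 bases of exon, 0.06 between 1000 and 2000, and -0.29 from 2000 on, against 0.04, 0.02 and -0.01 in C. briggsae. All pairs at the floor gave 0.24, 0.03 and -0.19 in C. elegans, so the trend was not particular to the steady genes. The part of length in the C. elegans result was not tested. With mixture library A1 alone 93 of the 150 lay within, and with A2 alone 64.

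The level of a gene between the species was not used by the ranges and was tested over the embryo and L1 cultures (limma on log2(RPKM + 1), 8 cultures, Benjamini-Hochberg over 12618 pairs at 0.05). A steady level over stages did not mean an equal level in the species. Of the 150, 71 were called, 33 higher and 38 lower in C. briggsae (39 and 35 after median-ratio scaling), against 65.9% of all pairs tested (26.9% higher, 39.0% lower) and 703 of 1269 at the floor. At an unadjusted p under 0.05 there were 78. Embryos and L1 of 1 letter belong to the same time course, so the 8 cultures come from 2 courses per species. The main fit treats them as 8 separate units. With embryos and L1 averaged within each course (2 residual degrees of freedom), 66 of the 150 were called, and 7941 of the 12618 pairs. The median size of the difference was 0.37 (log2) in the steady genes, 0.46 in the pairs at the floor and 0.74 in all pairs tested. A difference over 2-fold was seen in 12 (8%), 15.6% and 35.7%. The floor uses these same embryo and L1 levels and leaves out pairs that are low in 1 species. It thus limits the difference in the steady genes and the 1269 pairs, but not in all pairs tested. The embryo cultures in this test also differ in the muscle, intestine, pharynx, cuticle and germ line markers, whose part in the result was not tested. No source used here gives the gene models and lengths behind the RPKM of each species, and a model of another length would shift all stages of a species alike.

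Lower in C. briggsae by the largest amount was cct-3 (F54A3.3, II, 2233540 to 2243539), a subunit gene of the chaperonin. Its C. elegans cultures A and B held 54.8 and 84.1 RPKM in embryos and 89.2 and 118 in L1, and its C. briggsae cultures 24.2 and 20.3 in embryos and 24.2 and 33.5 in L1. The groups did not overlap, and the log2 difference was -1.68 ± 0.20 (SE; adjusted p = 0.000209, limma). Also lower was cct-1 (-1.24 ± 0.17). The call of cct-4 (-0.49 ± 0.19) lay at the threshold, with an adjusted p of 0.049987 (limma), and held in 7 of 16 alternatives, whose adjusted p ran from 0.0190 to 0.164. The fourth gene of the list, pfd-3, was not called (-0.25 ± 0.19).

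The next largest were cisd-1, an iron-sulfur protein gene (-1.37 ± 0.17), tin-9.1, for a small chaperone of mitochondrial import (-1.34 ± 0.20), eif-3.K (-1.33 ± 0.20) and mrpl-11 (-1.30 ± 0.17). The gene cisd-1 was at 101 ± 46.7 RPKM in C. elegans embryos and 134 ± 7.15 in L1, against 41.2 ± 2.64 and 41.5 ± 1.85 in C. briggsae (SD, n = 2 cultures each).

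Higher in C. briggsae by the largest amount was R12E2.11 (I, 4172438 to 4173624). It was at 32.2 ± 9.84 RPKM in embryos and 36.0 ± 13.8 in L1 of C. elegans, and at 74.4 ± 10.2 and 84.4 ± 16.3 in C. briggsae (SD, n = 2 cultures each). The log2 difference was 1.25 ± 0.23 (SE; adjusted p = 0.00203, limma). It was followed by nduv-3 of complex I (1.22 ± 0.18), eif-1 (1.14 ± 0.14), ell-1, an RNA polymerase II elongation factor gene (1.12 ± 0.20), and ymel-1 (1.06 ± 0.12). For eif-1 the C. elegans cultures held 104.3 and 84.4 RPKM in embryos and 70.5 and 82.5 in L1, all under the C. briggsae cultures at 161 and 200.4 in embryos and 179 and 210.1 in L1.

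Among the steadiest 10, eif-3.D was lower (-0.87 ± 0.19) and skn-1 higher (0.98 ± 0.16) in C. briggsae, and the other 8 were not called. Of the 7 steady eIF3 genes 1 was higher, 3 were lower and 3 were not called, where all pairs tested gave 26.9% higher and 39.0% lower. The 19 genes of the mitochondrial ribosome gave 2, 4 and 13, and the 8 synthetase genes 3, 0 and 5. No direction of these lists turned under median-ratio scaling or quantile normalization.

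**Figure D4:**
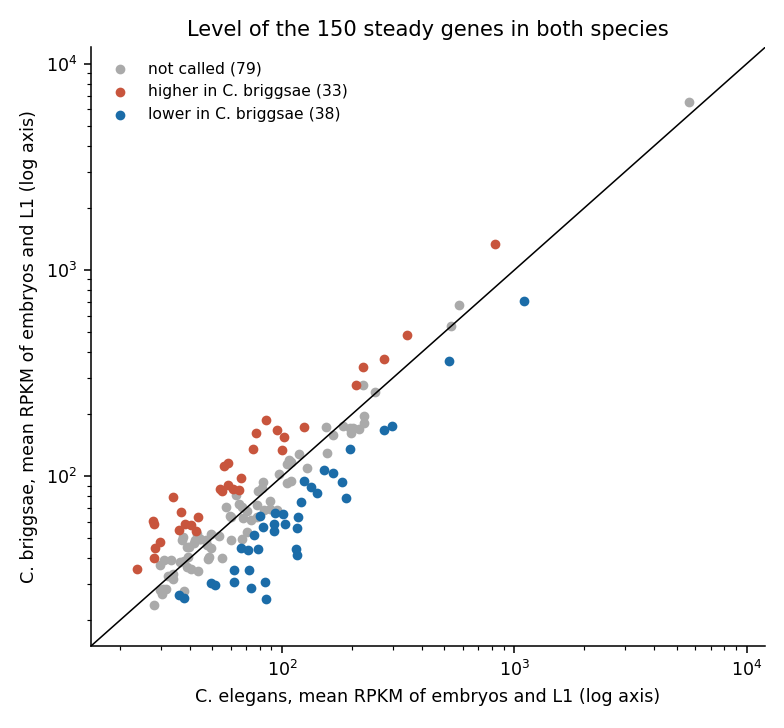
Level of each of the 150 steady genes in C. elegans (x) and C. briggsae (y), as the mean RPKM of the embryo and L1 cultures on log axes, with the line of equality. Genes called higher in C. briggsae are red (33), lower blue (38) and not called grey (79).

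By position, 3 of 148 steady genes with a match in the annotation were on chromosome X (2.03%), sft-4, mct-6 and W04G3.5. The other pairs at the floor had 73 of 1116 on X (6.54%) and all pairs 14.5%. A neighbouring protein-coding gene on the same strand overlapped or lay within 500 bases of 90 of the 148 (60.8%), against 47.6% of the other pairs at the floor and 34.9% of all pairs. Genes of a C. elegans operon, a run of genes transcribed together, also lie close on the same strand. Overlaps count here too and operons were not annotated, so the share is not that of operon genes. Pairs of steady genes stood next to each other in this way in 2 places. On chromosome V, mrps-2 (8465686 to 8467159) lies 105 bases before mrpl-4 (8467265 to 8468943). On chromosome III, algn-11 (7287847 to 7290562), which encodes a mannosyltransferase of N-glycosylation, lies 243 bases before ykt-6 (7285983 to 7287603), a SNARE gene, on the minus strand. Exon length had a median of 1258.5 bases in the steady genes and 1411 in the other pairs at the floor. In 48 of the 148 (32.4%) the gene overlapped another protein-coding gene, among them eif-3.D, eif-3.H, ears-1, eif-1, eif-3.K, cisd-1 and ell-1, whose reads could be split between genes. The shares are descriptions with no test.

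Which genes were steadiest depended on how the libraries were scaled. After median-ratio scaling 29 of the 150 were still among the 150 lowest scores, and after quantile normalization 64. The log2 median-ratio factors were 0.17 to 0.66 in embryo libraries and below 0 from L2 to LL4, down to -0.47 in C. briggsae L2. On median-ratio values the 150 had a median score of 2.30-fold, with 41 under 2-fold and 134 under 3-fold. With embryos left out 50 were shared.

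The lists moved too. The mitochondrial ribosome gave 19 of the 150 lowest on deposited RPKM, 6 after quantile normalization, 5 after median-ratio scaling and 8 without embryos. The eIF3 list gave 7, 7, 2 and 4, complex I 10, 6, 0 and 3, and vesicle traffic 5, 9, 14 and 7. The cytosolic ribosome gave 0, 1, 0 and 30, mitochondrial import 10, 5, 2 and 2, the synthetases 8, 3, 2 and 5, all translation factors 12, 12, 5 and 11, and the ABC proteins 3, 1, 0 and 0. The chaperonin and prefoldin list gave 4, 2, 2 and 2, actin and microtubule genes 6, 5, 10 and 5, and the Arp2/3 complex 3, 3, 3 and 2. The 8 genes that stayed among the 150 lowest under 22 alternatives, all except the floor of 50 RPKM, were arx-2, pfd-3, C47G2.3, lars-1, eif-1, mrps-12, vps-4 and ubql-1, a ubiquilin gene.

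**Figure D5:**
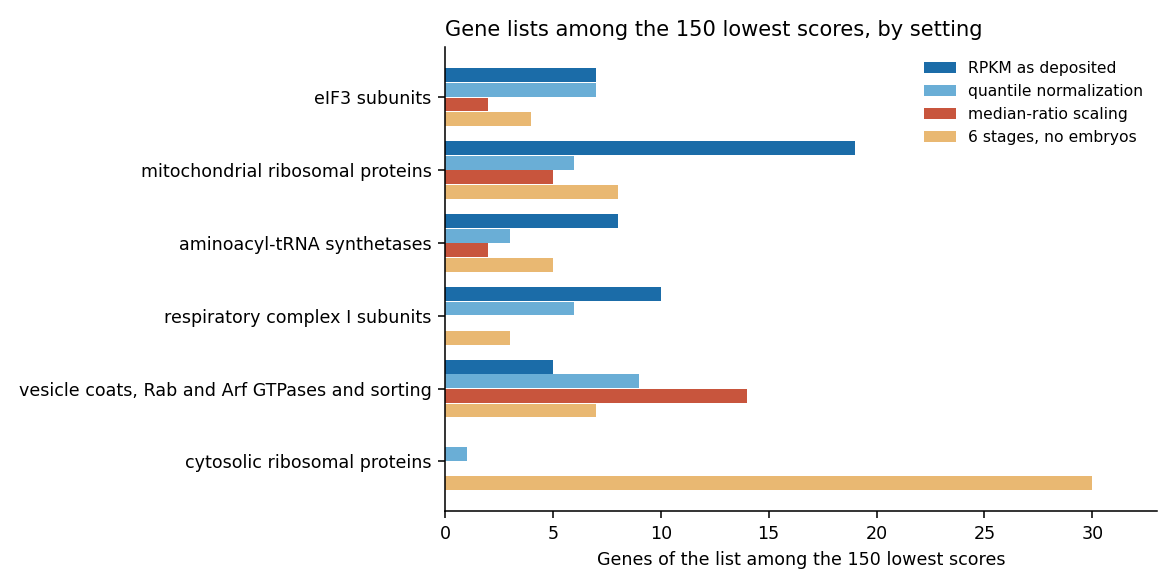
Number of genes of 6 function lists among the 150 lowest scores, with the RPKM as deposited, after quantile normalization, after median-ratio scaling and with embryos left out. The mitochondrial ribosome bar falls from 19 to 6, 5 and 8, and the cytosolic ribosome bar is at 30 when embryos are left out.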

How the data were processed

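The deposited table gives RPKM for 21774 C. elegans gene IDs in 26 libraries, computed by the authors. The aligner was BWA 0.5.7, according to the submitters' processing notes. No source used here gives the genome build, annotation, counting rule or ortholog source. For 13938 IDs the table holds C. briggsae values beside those of C. elegans. Of these, 125 with values identical to another ID were left out. Read counts were not used here, so the depth is unknown and no counting intervals are given. RPKM is relative to each library's total and its sums do not give depth.

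Values were used as deposited with a pseudocount of 1. The floor was applied to the stage mean of log2(RPKM + 1); on the linear mean 149 of the 150 are the same. Libraries A1 and A2 come from 1 sample, so their differences may be technical and cultures are the replicates. The species difference was tested with limma 3.58.1 (R 4.3.3; lmFit and eBayes with trend, 4 residual degrees of freedom) on pairs of at least 1 RPKM in at least 2 cultures, and checked on simulated data. Adjusted p-values are Benjamini-Hochberg. The log scale understates changes of low genes. The labels' growth protocol says that A and B are separate time courses. Deviations of culture A correlated between groups across genes by -0.02 to 0.29, and with culture as a block 77 of the 150 were called. Python 3.11.15 with pandas 2.3.3 and numpy 2.4.6 did the rest, and matplotlib 3.10.9 drew the plots.

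Positions and exon lengths are those of Ensembl 115 on WBcel235, matched by sequence name (148 of 150). Symbols came from RefSeq. No sequence is shown. The genes and lists were chosen with earlier results of these data known, and the lists of eIF3, mitochondrial ribosome, complex I, mitochondrial import, ABC and Arp2/3 genes were drawn up after the values were seen; none is independent evidence. Genes named are the 10 of lowest score, the 5 highest and 5 lowest in level, the 5 largest called species differences per direction, the 3 on either side of the limit, up to 3 per list, the quantitative PCR genes and the 5 farthest in the mixture; others named as members, extremes or exceptions of a list or of a setting were chosen after their values were seen. Alternatives were other pseudocounts, floors, scalings, stages, the standard deviation and leaving out libraries or cultures.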

Additional observations from a re-analysis of the deposited data

How the results depend on the processing

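Of the 150 genes, 149 and 144 stayed among the 150 lowest scores with pseudocounts of 0.5 and 5, 130 with culture A only and 132 with the standard deviation over stages in place of the range (median 0.31). Leaving out 1 embryo or L1 library gave 131 to 149 genes shared, with median scores of 0.88 to 0.90. Fewer were shared with a floor of 10 RPKM (94) or 50 RPKM (52, median score 1.11), after median-ratio scaling (29) or quantile normalization (64), and with embryos left out (50, median score 0.62). Fewer genes reach 50 RPKM (458) and more reach 10 RPKM (2610); the cause of the shifts under scaling was not tested. Without C. briggsae embryo culture A, an alternative added after seeing the data, 127 were shared, and without the C. elegans L2 library, also added, 134 (median score 0.85).

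The count of steady genes that differ between the species was 71, between 59 and 69 when a culture was left out (7137 to 7974 over all pairs) and between 66 and 77 under the other alternatives. With the replicate block (culture A or B) it was 77, of which 71 were shared, and 8481 of all pairs. No call was lost with the block. The median species difference over all pairs was -0.21 (log2) as deposited, -0.15 after median-ratio scaling and -0.04 after quantile normalization. Without C. elegans embryo library A1, also added later, 76 were called. All 160 values of the 10 named species differences kept direction and call over 16 alternatives, with adjusted p from 8.32e-05 to 0.0104. Read depth is unknown, so it is not known how far counting error limits these values.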

Other observations

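Some genes were steady in 1 species only. Below the limit of 2.02-fold, 179 pairs at the floor were steady in C. elegans and not in C. briggsae, and 120 the reverse; the difference between the species was not tested, and stages from L2 on have 1 library each. The farthest apart in the first group was K08D12.3, at 1.61-fold in C. elegans and 53.7-fold in C. briggsae, where embryos were lowest. It was followed by ost-1, the gene of the extracellular matrix protein SPARC (1.66-fold and 15.97-fold), and dim-1, a body wall muscle gene (1.57-fold and 13.6-fold), both lowest in C. briggsae embryos. There, 9 body wall muscle markers summed to 114 RPKM, against 806 in C. elegans embryos, and their part in these ranges was not tested. In the second group gpdh-2, a glycerol-3-phosphate dehydrogenase gene, spanned 5.79-fold in C. elegans and 1.45-fold in C. briggsae, and pgk-1, of glycolysis, 5.63-fold and 1.76-fold. These genes were chosen after their values were seen.

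Another 98 C. elegans genes without C. briggsae values held at least 20 RPKM in every stage, and 17 of them stayed under the same limit. They include mrpl-50 and mrps-16 of the mitochondrial ribosome, eif-3.G of eIF3, and ndub-2 and nduc-2 of complex I.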
